A study of Homo sapiens with 12 samples.

Results

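The genes described are 10 components of Wnt signalling in WI-38 fibroblasts treated with transforming growth factor (TGF)-β, out of 25702 genes counted. They were chosen by name, with earlier results of these data known. They are the ligands WNT2, WNT5A and WNT5B and the Frizzled receptors FZD1, FZD2, FZD7 and FZD8. The others are the secreted inhibitors DKK1 and SFRP1, and the feedback gene AXIN2. All 10 had counts in every library. A wider list of Wnt pathway genes, which holds these 10, was used as their surroundings.

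WI-38 is a line of normal human lung fibroblasts. The cultures at passages 2 to 3 were harvested after 1 day, either untreated (D1) or treated with TGF-β at 2 ng/mL (D1+ TGF-β), and those at passages 5 to 6 after 20 days, either untreated (D20) or treated (D20+ TGF-β). Of 5 flasks per condition, 3 were sequenced, so n = 3 throughout. The D20 flasks descended from 1 untreated and the D20+ TGF-β flasks from 1 treated flask, so p-values measure the spread between such flasks of a single line, and day, passage and length of culture cannot be told apart. Totals ranged from 8674488 to 18286197 counts per library. Levels are given as cpm, which are counts scaled for library size and composition. Calls were made where edgeR's quasi-likelihood test gave an adjusted p under 0.01, adjusted after Benjamini and Hochberg over all genes tested. All libraries were fitted together, with an estimate of the spread per gene shared by all conditions. A library outside a comparison can therefore change its standard error and p. A pair of libraries stood apart from their own replicates, D1 replicate 2 and D20+ TGF-β replicate 3. Between replicates of these conditions, the chi-square per degree of freedom reached 36.1 and 26.5, against 1.78 to 4.49 at D1+ TGF-β and D20. It was 12.9 between D1 replicates 1 and 3, so D1 stayed more uneven without replicate 2. Between D20+ TGF-β replicates 1 and 2 it was 5.28. Calls among the 10 genes that turn on leaving out either library that stood apart are given with and without it.

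Wnt proteins are secreted, lipid-modified ligands that bind Frizzled receptors on the cell surface. Together with the co-receptors LRP5 and LRP6, some ligands stabilise β-catenin, which enters the nucleus and drives transcription with TCF/LEF factors, while others such as WNT5A and WNT5B are best known for β-catenin-independent signalling to the cytoskeleton. Secreted inhibitors act at both steps, SFRP1 by binding Wnt proteins and DKK1 by occupying the co-receptors, and AXIN2 is a feedback gene that β-catenin itself induces. In lung, Wnt and TGF-β signals are both known from fibroblast activation and tissue repair.

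The sequences before the start sites of 3 of the genes are shown because these genes had the widest ranges of condition means. They are the 250 bases upstream of the start in RefSeq on GRCh38.p14, read 5′ to 3′ on the strand of the gene, and capitals mark matches on either strand to a TATA box (TATAAA) or a SMAD box (CAGAC). FZD8 lies on the minus strand (chr10:35642297-35642546), WNT2 on the minus strand (chr7:117323059-117323308) and DKK1 on the plus strand (chr10:52314031-52314280).
FZD8: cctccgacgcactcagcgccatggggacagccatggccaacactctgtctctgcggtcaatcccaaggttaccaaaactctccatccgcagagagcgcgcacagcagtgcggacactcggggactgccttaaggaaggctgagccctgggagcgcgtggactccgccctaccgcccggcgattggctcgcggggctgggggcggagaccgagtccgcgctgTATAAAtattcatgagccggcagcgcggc
WNT2: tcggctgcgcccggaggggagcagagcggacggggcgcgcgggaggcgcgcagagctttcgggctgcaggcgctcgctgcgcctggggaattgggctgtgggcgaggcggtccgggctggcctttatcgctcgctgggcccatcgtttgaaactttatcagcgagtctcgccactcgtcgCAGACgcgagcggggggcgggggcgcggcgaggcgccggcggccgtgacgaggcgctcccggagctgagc
DKK1: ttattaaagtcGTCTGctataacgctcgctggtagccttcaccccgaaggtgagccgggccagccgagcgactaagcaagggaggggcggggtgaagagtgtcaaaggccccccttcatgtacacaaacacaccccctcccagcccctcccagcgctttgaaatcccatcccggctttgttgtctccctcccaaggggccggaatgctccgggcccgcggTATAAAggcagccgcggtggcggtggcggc
Both FZD8 and DKK1 had a TATA box near the usual distance from the start, beginning 29 and 30 bases upstream, a motif that 11.5% of 35116 human promoter windows of 300 bases held. The SMAD box, short enough to occur in 45.3% of those windows, was found in DKK1 239 bases and in WNT2 70 bases upstream. The RefSeq table used had windows for 6 of the 10 genes, FZD1, FZD8, WNT2, WNT5A, WNT5B and DKK1. A SMAD box also lay 24 bases upstream in FZD1 and 38 bases upstream in WNT5B, and another 38 bases downstream in WNT2. FZD8 and WNT5A held none. WNT5B also held a TATA box, 78 bases upstream. In none of these 6 genes did the window hold CTTTGAT, a spelling of the TCF/LEF core (2.62% of all windows), or the AP-1 letters TGANTCA (7.71%). Other spellings of the core were not searched for, and the DKK1 sequence above holds ctttgaa and ctttgtt, which are close to CTTTGAT. These matches are letters in a window and were not tested for binding.

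Of the 10 genes, 8 passed the filter of at least 10 cpm in at least 6 of 12 libraries and were tested among 9490 genes. FZD8 passed through the 6 libraries with TGF-β, where it was high, so that a difference was a condition of its entry. WNT2 and AXIN2 had too few reads for this filter and were tested in a fit on 13768 genes kept by a looser filter, edgeR's filterByExpr. In D1+ TGF-β vs D1, 4 of the 8 genes rose and 1 fell, where 13.4% of all genes tested were called, 6.89% as higher and 6.5% as lower. In D20+ TGF-β vs D20, 3 rose and 3 fell, against 27.5% of all genes, 12.8% higher and 14.7% lower. FZD8 is among those that rose, and leaving it aside, 3 of 7 rose at day 1 and 2 of 7 at day 20. In the looser fit, 10.9% and 24.4% of genes were called in these comparisons. The plot of levels by flask shows all 10.

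**Figure D1:**
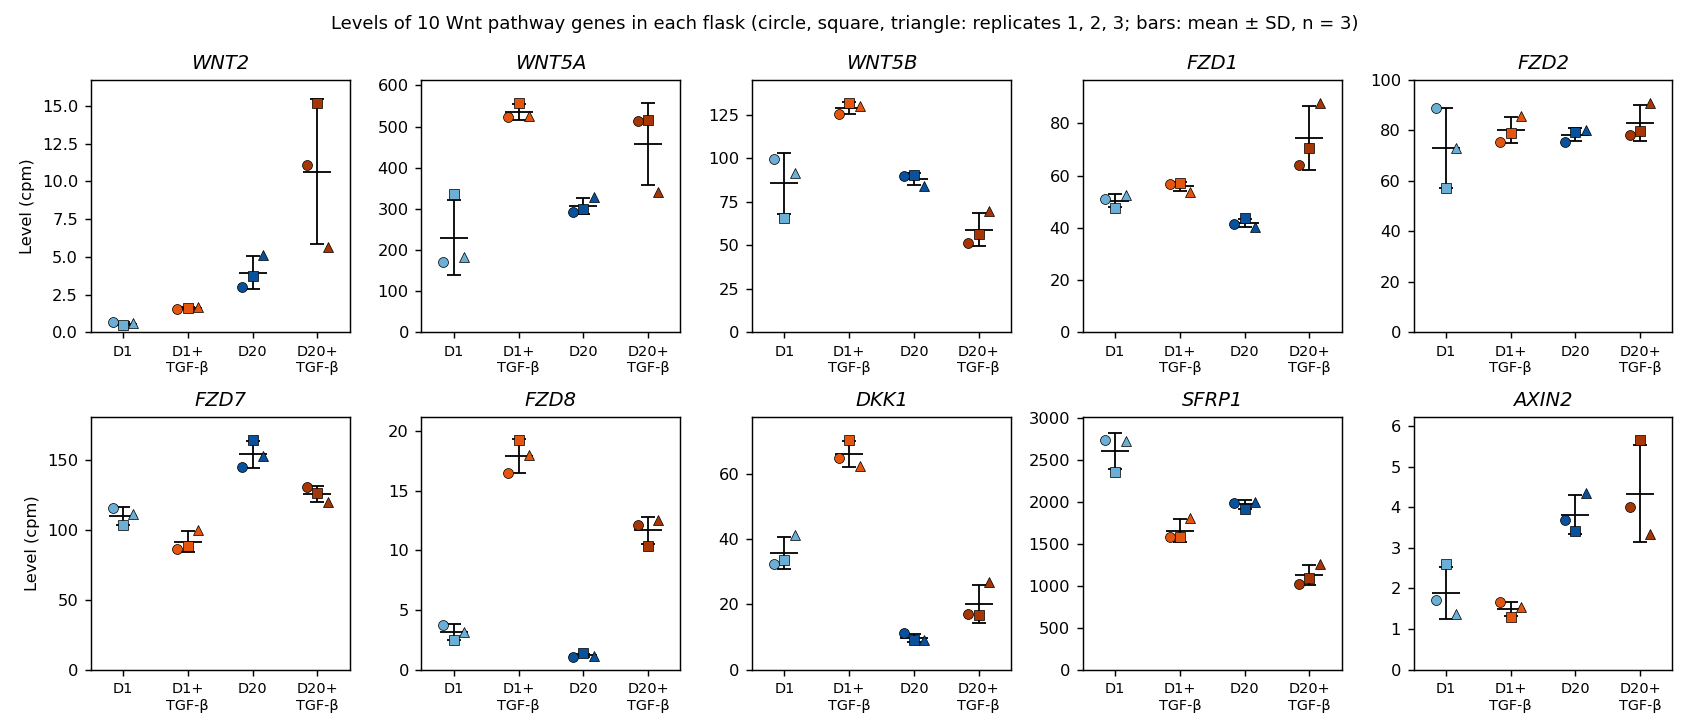
Levels in cpm of the 10 genes (linear axes from 0, a scale per gene) in the 4 conditions, with a symbol per flask and bars for the mean ± SD of 3 flasks. FZD8 lies between 1.07 and 3.78 cpm in the 6 flasks without TGF-β and between 10.4 and 19.2 cpm in the 6 with it, DKK1 is higher with TGF-β and lower at day 20, and WNT5B is highest at D1+ TGF-β and lowest at D20+ TGF-β.

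Among the receptors, FZD8 showed the largest difference of the 10 genes with TGF-β at both times. FZD8 encodes a Frizzled receptor with high affinity for many Wnt proteins and is a gene of a single exon (Entrez 8325, GRCh37 chr10:35927175-35931224, minus strand). Its levels were 3.78, 2.46 and 3.15 cpm at D1, against 16.4, 19.2 and 18.0 with TGF-β. After 20 days they were 1.07, 1.37 and 1.16 cpm untreated, against 12.1, 10.4 and 12.5 treated. The flasks with and without TGF-β did not overlap at either time, as was the case for 36.4% of all genes tested at day 1 and 58.3% at day 20. The level was 5.81-fold higher with TGF-β at day 1 (log2 fold change 2.54 ± 0.15 SE, adjusted p = 8.98e-08) and 9.65-fold higher at day 20 (3.27 ± 0.18, adjusted p = 1.96e-08). In the looser fit, whose filter FZD8 met in every condition with 11 to 339 counts per library, the values were 2.54 ± 0.16 and 3.27 ± 0.18. Without TGF-β, FZD8 fell from D1 to D20 by 1.35 ± 0.22 on the log2 scale (adjusted p = 0.000167), and with TGF-β by 0.62 ± 0.12 (adjusted p = 0.00102). The difference between the TGF-β responses of the 2 times, 0.73 ± 0.25, did not pass the threshold (adjusted p = 0.0518). The exon of FZD8 is overlapped by a long non-coding RNA on the opposite strand and holds a microRNA gene, and the sources used here do not say whether the counting used strand.

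FZD1, a receptor known for β-catenin signalling, rose with TGF-β at day 20. FZD1 (Entrez 8321, GRCh37 chr7:90893748-90900641, plus strand, a single exon) was counted at 51.1, 47.8 and 52.4 cpm at D1, with 56.7, 57.1 and 53.8 in the treated flasks. The D20 flasks held 41.4, 43.6 and 40.4 cpm, and the D20+ TGF-β flasks 64.1, 70.7 and 87.9 cpm. Flasks with TGF-β lay above those without it at both times, by a narrow margin at day 1. Such flasks did not overlap for 36.4% of all genes tested at day 1 and 58.3% at day 20. The log2 fold change was 0.15 ± 0.10 at day 1 (adjusted p = 0.296) and 0.82 ± 0.10 at day 20 (adjusted p = 2.44e-05), and the responses differed by 0.67 ± 0.14 (adjusted p = 0.00428). The call of the difference was lost without D1 replicate 3, any one D1+ TGF-β library or D20 replicate 1 or 3, with adjusted p up to 0.0155. D20+ TGF-β replicate 3 held the highest level. Without this library, the day 20 response was 0.69 (adjusted p = 1.51e-05) and the difference of responses 0.54 (adjusted p = 0.0028). Between the treated conditions FZD1 rose with time by 0.41 ± 0.10 (adjusted p = 0.00403), and without this library the value was 0.27 and not called (adjusted p = 0.0123). This call was also lost without any one D1+ TGF-β library and with only the libraries of the comparison, with adjusted p up to 0.0179. In D20 vs D1 the log2 fold change was −0.27 (adjusted p = 0.0372) with all libraries and −0.27 and called without D20+ TGF-β replicate 3, a library outside it (adjusted p = 0.00647).

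FZD7 was higher at day 20 than at day 1 in both treatments, by a small amount. FZD7 (Entrez 8324, GRCh37 chr2:202898578-202903164, plus strand, a single exon), a receptor studied in stem and mesenchymal cells, was counted at 116, 103 and 111 cpm at D1 and 145, 164 and 153 cpm at D20. The treated flasks held 86.5, 88.5 and 100.01 cpm after 1 day and 131, 127 and 119.98 cpm after 20 days. All flasks of day 20 lay above all flasks of day 1, with log2 fold changes of 0.48 ± 0.08 without TGF-β (adjusted p = 0.000167) and 0.46 ± 0.08 with it (adjusted p = 0.000328). Flasks of the 2 times did not overlap for 55.6% of all genes tested without TGF-β and 63.2% with it. TGF-β went with a fall of 0.29 ± 0.08 at day 20 (adjusted p = 0.00817), a call that 13 of the alternative settings did not keep, with adjusted p up to 0.0475. Without D20+ TGF-β replicate 3 it was −0.26 and not called (adjusted p = 0.0299). At day 1 the log2 fold change was −0.27 ± 0.08 (adjusted p = 0.0239), and −0.30 and called without D1 replicate 2 (adjusted p = 0.00925).

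FZD2 (Entrez 2535, GRCh37 chr17:42634852-42638630, plus strand, a single exon), a receptor linked to WNT5A signalling, was called in none of the comparisons. Its flasks held 57.3 to 88.7 cpm untreated and 75.4 to 85.8 cpm treated after 1 day, and 75.5 to 80.1 cpm and 78.3 to 90.9 cpm after 20 days. All 4 ranges overlap, and D1 replicate 2 held the lowest level. The log2 fold changes were 0.14 ± 0.12 with TGF-β at day 1 (adjusted p = 0.453) and 0.08 ± 0.12 at day 20 (adjusted p = 0.628). The smallest unadjusted p of edgeR's test over the 5 comparisons was 0.288, and under the alternatives, limma and DESeq2 among them, the smallest adjusted p was 0.026 at day 1.

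Among receptors outside the 10 genes, FZD4, a receptor that also binds Norrin, rose from 16.1, 17.01 and 17.1 cpm at D1 to 33.2, 41.7 and 47.98 cpm at D20, a log2 fold change of 1.30 ± 0.13 (adjusted p = 3.02e-06). Its TGF-β responses were 0.47 ± 0.13 at day 1 (adjusted p = 0.0206) and −0.79 ± 0.13 at day 20 (adjusted p = 0.000248), and their difference of −1.26 ± 0.18 passed the test (adjusted p = 0.000472). In the fit with the looser filter, the WNT5A receptors ROR1 and ROR2, named after their values were seen, both fell with TGF-β at day 20, ROR1 by 1.55 ± 0.17 and ROR2 by 1.29 ± 0.30 on the log2 scale (adjusted p = 7.69e-06 and 0.00388). ROR1 held 8.34 to 11.02 cpm at D20 and 2.87 to 3.72 cpm at D20+ TGF-β, and ROR2 held 7.27 to 9.36 and 1.34 to 4.32 cpm. Of the 10 receptors in the main test, 2 rose and 4 fell with TGF-β at day 20, where 27.5% of all genes were called, 12.8% higher and 14.7% lower. The 2 that rose were FZD1 and FZD8, and for FZD8 a difference was a condition of its entry into this test. From D1 to D20, 6 rose and 1 fell, against 36.4% of all genes, 18.9% higher and 17.6% lower.

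**Figure D2:**
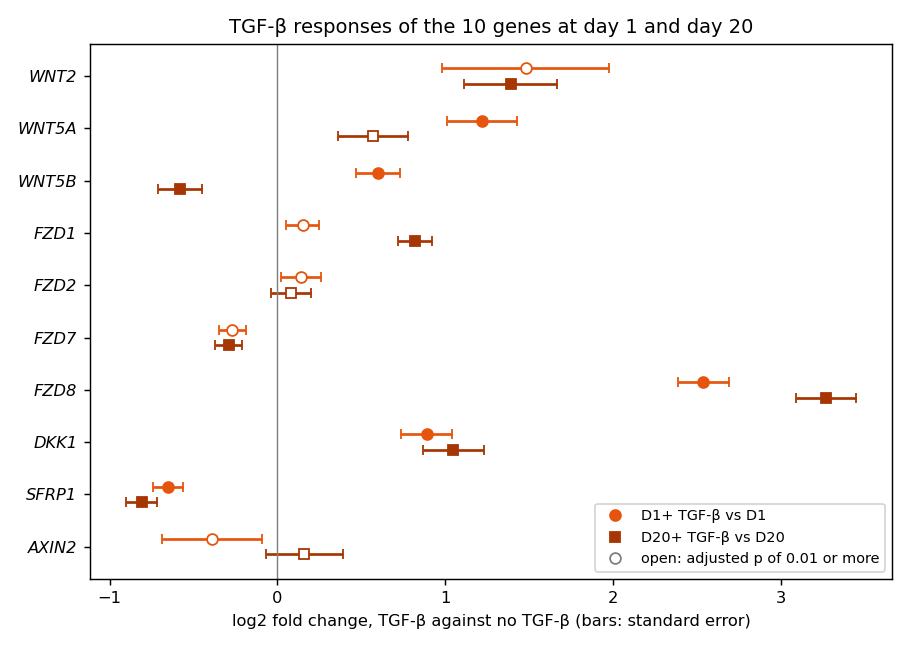
TGF-β responses of the 10 genes as log2 fold changes with standard errors at day 1 (circles) and day 20 (squares); filled symbols have an adjusted p under 0.01. FZD8 stands farthest to the right at both times (2.54 and 3.27), SFRP1 is to the left at both (−0.65 and −0.81), and WNT5B changes side (0.60 and −0.58).

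Of the ligands, WNT5B had opposite responses to TGF-β at the 2 times. WNT5B (Entrez 81029, GRCh37 chr12:1639057-1756378, plus strand) encodes a paralog of WNT5A. Its levels were 99.6, 65.9 and 91.5 cpm at D1, against 125, 132 and 130.1 with TGF-β. After 20 days they were 89.7, 90.5 and 84.4 cpm untreated, against 51.1, 56.6 and 69.5 treated. All treated flasks lay above the untreated ones at day 1 and below them at day 20, where 36.4% and 58.3% of all genes tested had flasks that did not overlap. The response was a rise of 0.60 ± 0.13 at day 1 (adjusted p = 0.00524) and a fall of 0.58 ± 0.13 at day 20 (adjusted p = 0.00361), and the difference of −1.18 ± 0.19 passed the test (adjusted p = 0.000843). It passed under all 22 alternatives, between −1.31 and −1.01. The day 1 call was lost without any one of the D1+ TGF-β libraries, with adjusted p up to 0.0254. At day 20 it was lost without D20 replicate 1 or 2 and without D20+ TGF-β replicate 1 or 2, with adjusted p up to 0.0238. Cultures without TGF-β showed a difference of 0.04 ± 0.13 between the times (adjusted p = 0.80), while treated ones fell by 1.13 ± 0.13 (adjusted p = 2.38e-05).

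WNT5A (Entrez 7474, GRCh37 chr3:55499743-55524567, minus strand), which signals through Frizzled, ROR and RYK receptors, had the highest level of the ligands per exon length. The D1 flasks held 172, 335 and 183 cpm, and the D1+ TGF-β flasks 523, 558 and 526. After 20 days the values were 293, 301 and 329 cpm untreated, and 515, 515 and 342 treated. Treated flasks lay above untreated ones at both times, where flasks did not overlap for 36.4% (day 1) and 58.3% (day 20) of all genes tested. The outlying values, D1 replicate 2 and D20+ TGF-β replicate 3, belong to the libraries that stood apart. WNT5A rose 2.33-fold at day 1 (log2 fold change 1.22 ± 0.21, adjusted p = 0.00107), or by 1.60 without D1 replicate 2 (adjusted p = 3.43e-06). The day 20 response was 0.57 ± 0.21 (adjusted p = 0.0434) and was not called with all libraries. It was called without D1 replicate 2, a library outside this comparison (0.59, adjusted p = 0.00122). It was also called without both libraries (0.76, adjusted p = 1.27e-08), a setting chosen after seeing the data. Without D20+ TGF-β replicate 3 alone it was 0.74 and not called (adjusted p = 0.0101). The difference of the responses was −0.65 ± 0.30 (adjusted p = 0.143), −1.01 without D1 replicate 2 (adjusted p = 0.00116), −0.47 without D20+ TGF-β replicate 3 (adjusted p = 0.238) and −0.84 without both (adjusted p = 1.35e-06). In D20 vs D1 the value was 0.42 ± 0.21 (adjusted p = 0.115), and 0.78 without D1 replicate 2 (adjusted p = 0.000366).

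Set side by side per kilobase of exon, WNT5A exceeded WNT5B in every flask. The ratio of their levels was 1.02, 3.01 and 1.19 at D1 and 2.47, 2.51 and 2.40 at D1+ TGF-β. At day 20 it was 1.94, 1.97 and 2.31 without TGF-β and 5.97, 5.40 and 2.92 with it. The ratios at D20+ TGF-β lay above those of D20 in all flasks, and at day 1 they overlapped because of D1 replicate 2.

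WNT2 was scarce at D1 and was higher with time in both treatments. WNT2 (Entrez 7472, GRCh37 chr7:116915505-116963206, minus strand), a ligand of lung mesenchyme that activates β-catenin signalling during lung development, had 7 to 8 counts per library at D1, or 0.687, 0.465 and 0.596 cpm. It held 1.54, 1.64 and 1.66 cpm in the treated flasks of day 1, 3.01, 3.72 and 5.14 cpm at D20, and 11.1, 15.2 and 5.64 cpm at D20+ TGF-β. No conditions next to each other in this order overlapped. The D1 flasks lay under the looser filter, which the flasks of each other condition met. Among all genes of the looser fit, flasks with and without TGF-β did not overlap for 33.7% at day 1 and 53.6% at day 20, and flasks of the 2 times for 57.7% with and 52.9% without TGF-β. Between the times it rose 6.75-fold without TGF-β (log2 fold change 2.75 ± 0.42, adjusted p = 0.000109) and 6.33-fold with it (2.66 ± 0.33, adjusted p = 2.36e-05), in the fit with the looser filter. TGF-β went with a rise of 1.39 ± 0.28 at day 20 (adjusted p = 0.00121), and the value at day 1, 1.48 ± 0.50, did not pass the threshold (adjusted p = 0.0492). The day 1 value was called without D20+ TGF-β replicate 3, a library outside this comparison (1.49, adjusted p = 0.00735), and not without D1 replicate 2 (1.33, adjusted p = 0.122) or without both (1.32, adjusted p = 0.0203). Exons of WNT2 overlap exons on the opposite strand.

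Of 19 ligands on the wider list, 7 had no count in any library and 3 passed the main filter. Besides WNT5A and WNT5B this was WNT16, a ligand known from bone and joint, which fell with TGF-β at both times, by 0.98 ± 0.11 at day 1 (adjusted p = 2.64e-05) and by 1.33 ± 0.10 at day 20 (adjusted p = 3.83e-07). It held 69.3 to 79.3 cpm at D20 and 29.3 to 31.7 cpm at D20+ TGF-β. WNT7B, named after its values were seen, had no count in the 3 D20 libraries. A floor set at 3 counts over the group would be 0.0753 cpm. WNT7B held 1.14, 1.54 and 5.26 cpm at D20+ TGF-β, with a mean 35.1 times this floor. Without replicate 3, one of the libraries that stood apart, the mean was 17.8 times the floor. These ratios leave out the spread between flasks and are not lower bounds.

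**Figure D3:**
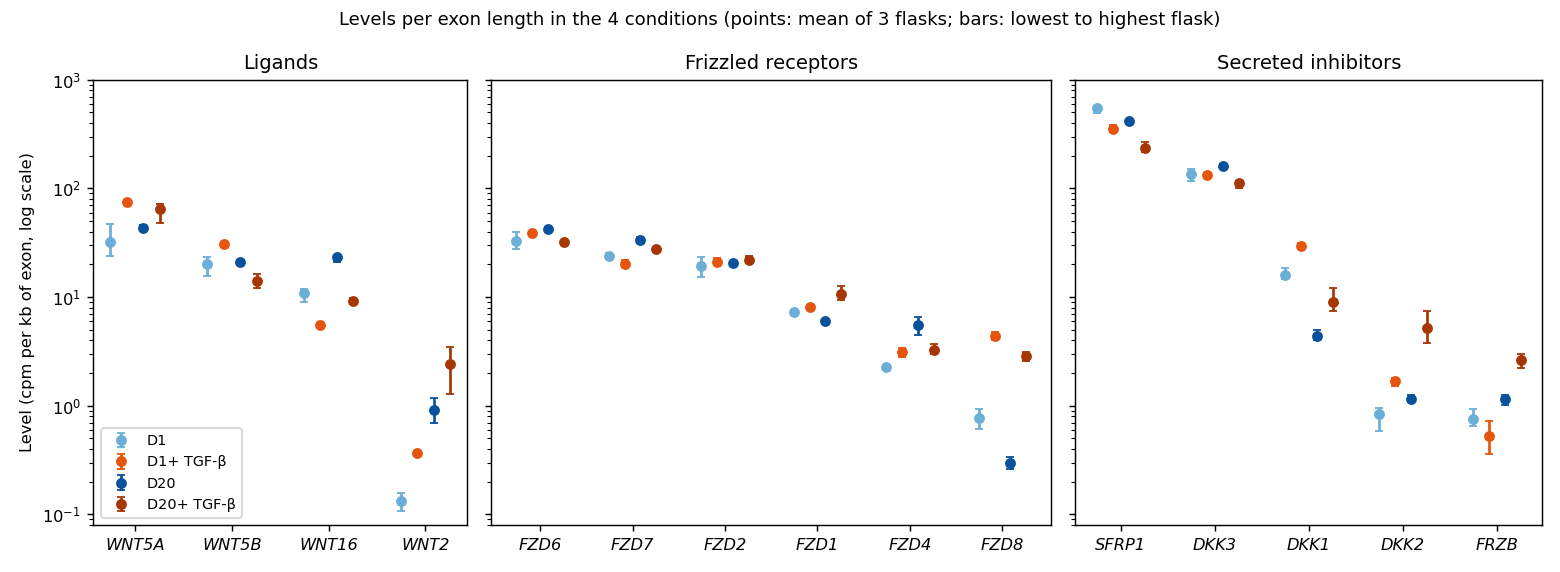
Levels in cpm per kilobase of exon (log axis) of ligands, Frizzled receptors and secreted inhibitors; points are means of 3 flasks and bars run from the lowest to the highest flask. Over the 12 libraries SFRP1 has the highest mean (388), WNT5A leads the ligands (53.5) and FZD8 is the lowest of the Frizzled receptors shown (2.09).

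Per kilobase of exon, the order of mean levels over the 12 libraries was WNT5A (53.5 cpm per kb), WNT5B (21.3), WNT16 (12.2) and WNT2 (0.963) among the ligands. For the Frizzled receptors it was FZD6 (36.4), FZD7 (26.3), FZD2 (20.8), FZD1 (8.06), FZD4 (3.54) and FZD8 (2.09). The order was not the same in each condition. At D1+ TGF-β, FZD8 with a mean of 4.42 lay above FZD4 with 3.14 and did not overlap it, and FZD2 with 21.2 overlapped FZD7 with 19.98 cpm per kb. At D20 the mean of WNT16 was above that of WNT5B, 23.2 against 20.8 cpm per kb, with overlapping flasks. Exon lengths are unions over transcripts, so that these levels are relative.

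The 2 secreted inhibitors among the 10 genes moved in opposite directions with TGF-β. DKK1 (Entrez 22943, GRCh37 chr10:54074041-54077802, plus strand) held 32.3, 33.5 and 41.3 cpm at D1, against 65.0, 70.4 and 62.6 with TGF-β. After 20 days its levels were 11.2, 9.03 and 8.996 cpm untreated, against 16.98, 16.6 and 26.96 treated. No flasks of any 2 conditions overlapped. In single comparisons this held for 36.4% (TGF-β at day 1), 58.3% (TGF-β at day 20), 55.6% (time without TGF-β) and 63.2% (time with TGF-β) of all genes tested. DKK1 rose with TGF-β by 0.89 ± 0.15 at day 1 (adjusted p = 0.00087) and by 1.05 ± 0.18 at day 20 (adjusted p = 0.000394) on the log2 scale, with a difference of 0.16 ± 0.23 between the times (adjusted p = 0.658). Without D20+ TGF-β replicate 3, which held the highest level at D20+ TGF-β, the day 20 rise was 0.80 (adjusted p = 0.000403). From day 1 to day 20 it fell 3.69-fold without TGF-β (log2 fold change −1.88 ± 0.17, adjusted p = 1.45e-06) and 3.30-fold with it (−1.72 ± 0.16, adjusted p = 3.95e-06). Exons of DKK1 overlap those of the antisense RNA PRKG1-AS1.

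SFRP1 (Entrez 6422, GRCh37 chr8:41119481-41166992, minus strand) was the most abundant of the 10 genes per exon length and fell in all 4 comparisons. Its flasks held 2734, 2352 and 2721 cpm at D1, against 1583, 1575 and 1809 with TGF-β. After 20 days they held 1989, 1912 and 2001 cpm untreated, against 1021, 1096.5 and 1255 treated. None of the flasks overlapped in any of the 4 comparisons. Taken singly, flasks did not overlap with and without TGF-β for 36.4% of all genes tested at day 1 and 58.3% at day 20. Between the times the shares were 55.6% without and 63.2% with TGF-β. SFRP1 fell with TGF-β by 0.65 ± 0.09 at day 1 (adjusted p = 0.000253) and by 0.81 ± 0.09 at day 20 (adjusted p = 2.02e-05), and the difference of −0.15 ± 0.13 did not pass the test (adjusted p = 0.439). With time it fell by 0.40 ± 0.09 in untreated (adjusted p = 0.00295) and by 0.56 ± 0.09 in treated cultures (adjusted p = 0.000321). The D20 vs D1 call was lost without D1 replicate 1 or 3 or without any one D20 library, with adjusted p up to 0.0161.

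Other genes listed with the secreted inhibitors went with TGF-β at day 20 in both directions, and their action on Wnt signals was not tested. DKK3, a relative of DKK1, fell by 0.55 ± 0.10 (adjusted p = 0.00051). DKK2 and FRZB, both scarce and named after their values were seen, rose in the fit with the looser filter, DKK2 from 4.78 to 5.43 cpm at D20 to 16.5 to 32.3 cpm at D20+ TGF-β (log2 fold change 2.15 ± 0.24, adjusted p = 7.86e-06) and FRZB from 2.69 to 3.30 cpm to 5.83 to 7.84 cpm (1.18 ± 0.20, adjusted p = 0.000346). KREMEN1, a receptor through which DKK proteins act, was listed apart from the secreted inhibitors. KREMEN1 fell with TGF-β by 1.04 ± 0.18 at day 1 and by 1.05 ± 0.16 at day 20 (adjusted p = 0.000977 and 0.000161). With time it rose by 1.28 ± 0.16 without and 1.27 ± 0.18 with TGF-β (adjusted p = 2.21e-05 and 8.23e-05).

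AXIN2, the feedback gene, was low and was higher at day 20 than at day 1. AXIN2 (Entrez 8313, GRCh37 chr17:63524681-63557766, minus strand) encodes a scaffold of the complex that degrades β-catenin. It held 1.72, 2.59 and 1.36 cpm at D1, and 1.65, 1.30 and 1.54 with TGF-β. After 20 days it held 3.69, 3.41 and 4.35 cpm untreated, and 4.001, 5.65 and 3.35 treated, from 13 to 71 counts per library. The flasks of the 2 times did not overlap, and those with and without TGF-β overlapped at both times. In the looser fit, flasks of the 2 times did not overlap for 52.9% of all genes without TGF-β and 57.7% with it. AXIN2 rose with time by 0.95 ± 0.25 without TGF-β (adjusted p = 0.00633) and by 1.5 ± 0.27 with it (adjusted p = 0.000451). The former call was lost without D1 replicate 1 or 3 or any one D20 library, with adjusted p up to 0.0367. For TGF-β the log2 fold change was −0.39 ± 0.30 at day 1 (adjusted p = 0.39) and 0.16 ± 0.23 at day 20 (adjusted p = 0.622). A protein-coding transcript annotated as another gene shares exons with AXIN2 on the same strand.

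With AXIN2, 7 feedback and target genes were tested in the fit with the looser filter. Over time in treated cultures, 5 of them rose and 2 fell, where 30.5% of all genes were called. The 2 that fell were CCND1 and MYC. CCND1, the most abundant of these genes, held 638 to 672 cpm per kb at D1+ TGF-β and 328 to 451 at D20+ TGF-β. MYC held 8.69 to 9.63 and 4.32 to 6.03 cpm per kb. In D20 vs D1, 4 were higher and 1 lower, against 31.6% of all genes. NKD2, a feedback inhibitor of Dishevelled, and WISP1, a matrix protein named for its induction by Wnt, were named after their values were seen. NKD2 met the looser filter only through the day 20 libraries, where it was high, so that a difference between the times was a condition of its entry. It is among the genes counted above as higher at day 20 in both comparisons. NKD2 held 0.340 to 1.37 cpm at D1 and 13.3 to 16.8 cpm at D20 (log2 fold change 4.09 ± 0.37, adjusted p = 8.9e-07), and 3.15 to 8.84 cpm at D20+ TGF-β, a fall of 1.33 ± 0.28 with TGF-β (adjusted p = 0.00177). WISP1 held 1.87 to 4.05 cpm at D1 and 33.9 to 43.1 cpm at D20 (3.72 ± 0.41, adjusted p = 5.77e-06). In treated cultures TNFRSF19, a receptor of the tumour necrosis factor family, rose with time by 1.53 ± 0.07 (adjusted p = 4.04e-08), and LEF1, a nuclear partner of β-catenin, by 1.02 ± 0.16 (adjusted p = 0.000142). MYC, which drives growth and is counted as a Wnt target, fell from D1 to D20 by 1.27 ± 0.14 (adjusted p = 9.49e-06).

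Between the treated conditions, 2 of the 8 genes in the main test rose with time and 4 fell, where 34.8% of all genes were called, 17.2% as higher and 17.7% as lower. In D20 vs D1, 1 rose and 3 fell, against 36.4% of all genes, 18.9% higher and 17.6% lower. Flasks did not overlap between the times for 7 of the 8 genes with TGF-β and 5 without it, and for 63.2% and 55.6% of all genes. The TGF-β responses of the 2 times differed for 2 of the 8 genes, with a larger value at day 20 for FZD1 and a smaller one for WNT5B, and for 10.4% of all genes, 4.51% larger and 5.87% smaller. In the looser fit, in which neither WNT2 nor AXIN2 was called for this difference, it was 8.04%. These comparisons share samples, so that their values are given side by side and not as repeats of each other.

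On the wider list, 53 genes passed the main filter, 8 of them among the 10 genes and 45 outside them. In D1+ TGF-β vs D1, 7 of the 53 rose and 4 fell, where 13.4% of all genes were called, and without the 10 genes 3 of 45 rose and 3 fell. In D20+ TGF-β vs D20, 8 rose and 16 fell, against 27.5% of all genes, and 5 rose and 13 fell of the 45. Between the treated conditions 13 rose with time and 8 fell, against 34.8%, and 11 rose and 4 fell of the 45. In D20 vs D1, 21 rose and 5 fell, where 36.4% of all genes were called, 18.9% higher and 17.6% lower, and of the 45 genes 20 rose and 2 fell. The median log2 fold changes of the 53 genes were 0.05, −0.03, 0.09 and 0.23 in the order above, against −0.02, 0.01, 0.01 and 0.01 over all genes tested. Among the planar polarity genes, PRICKLE1 rose at day 1 with TGF-β by 1.26 ± 0.17 (adjusted p = 0.000149), and its response at day 20 differed by −1.39 ± 0.24 (adjusted p = 0.00136). LGR4, a receptor for R-spondins that amplify Wnt signals, rose from D1 to D20 by 1.23 ± 0.14 (adjusted p = 1.12e-05).

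**Figure D4:**
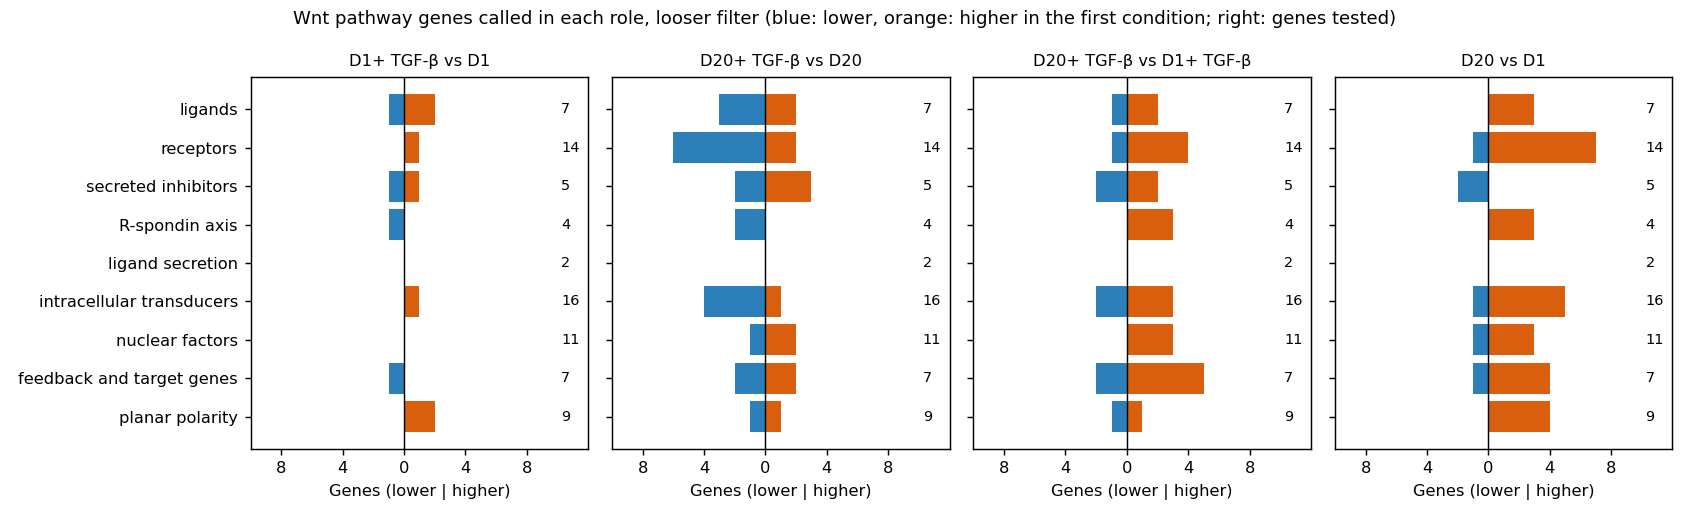
Numbers of Wnt pathway genes called in each role (bars to the right higher, to the left lower in the first condition) in the fit with the looser filter, with the genes tested in each role at the right. In D20 vs D1, 7 of 14 receptors are higher and 1 is lower, where 31.6% of all genes were called, and in D20+ TGF-β vs D20, 2 are higher and 6 lower, against 24.4%.

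Other features moved with these comparisons. All 10 proliferation markers were lower at D20 than at D1 and lower at D20+ TGF-β than at D1+ TGF-β, with summed levels of 865 to 1323 cpm (D1), 970.1 to 1049.6 cpm (D1+ TGF-β), 188 to 218 cpm (D20) and 367 to 567 cpm (D20+ TGF-β). In D20+ TGF-β vs D20, 9 of the 10 were higher. Of 5 myofibroblast markers, 4 rose with TGF-β at day 1, where 13.4% of all genes were called. At day 20, 1 rose and 2 fell, against 27.5%. These are RNA levels. The authors judged myofibroblasts by α-smooth muscle actin protein, found in most treated cells at day 20 and in none at day 1. The part of the proliferation or myofibroblast markers in the results above was not tested. Of the markers of other cell types, 7 of 8 epithelial, 5 of 6 endothelial and 4 of 6 immune genes stayed under 2 cpm in every library, with KRT19, TEK, CD14 and CD68 above. TEK, an angiopoietin receptor of endothelial cells, held 45.0 to 78.7 cpm at D1, 33.2 to 38.9 at D1+ TGF-β, 222 to 248.99 at D20 and 76.2 to 150.2 at D20+ TGF-β. It rose with time by 2.05 without (adjusted p = 8.83e-06) and 1.72 with TGF-β (adjusted p = 6.71e-05), and fell with TGF-β at day 20 by 0.97 (adjusted p = 0.00327) on the log2 scale. CD68, a lysosomal protein used as a macrophage marker, fell with TGF-β at day 1 by 0.49 (adjusted p = 0.00252). The part of these markers in the results was not tested. In bulk RNA, fewer cells expressing a gene and less RNA per cell cannot be told apart.

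As a description over the 12 libraries, which share their 4 conditions, the log2 cpm of FZD8 ran most nearly with those of SLC35F2 (Pearson's r = 0.992), SLC7A5 and XPOT (both 0.986). For DKK1 these were NCL (0.99), BCAR3 (0.987) and DCBLD2 (0.986), and for WNT2 they were ZNF362 (0.986), CCPG1 (0.98) and SCN7A (0.975).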

How the data were processed

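RNA of 12 flasks was read by the authors on 4 lanes each from directional libraries, trimmed with Trimmomatic and mapped to hg19 (GRCh37) with Rsubread. For each lane, the authors deposited unnormalized counts of 25702 genes, and log2 cpm values made with voom for 9412 genes, which were used only as an alternative. Program, annotation and strand setting of the counting are not given in the sources used here. Lanes were summed per library. Genes reaching 10 cpm in 6 or more libraries (9490 of 20434 with a count) were tested in R 4.3.3 with edgeR 4.0.16 (TMM factors, quasi-likelihood, 1 mean per condition, Benjamini-Hochberg, threshold 0.01). The biological coefficient of variation was 9.35%. An exact permutation test of 3 against 3 flasks cannot go below 0.1 and was not used. Members, lists, rules and alternatives were chosen with earlier results of these data known. All 10 members are named, with at most the 4 largest changes per comparison among pathway genes called at a log2 fold change of at least 1, and for the 3 members of widest range the 3 most similar genes. Other genes were named after seeing their values. Alternatives used limma 3.58.1 and DESeq2 1.42.0, other scalings and filters, fewer libraries and a replicate block. The code was tested on simulated data. Replicate numbers did not pair the samples. Gene positions are from GENCODE on GRCh37, promoter sequences from RefSeq on GRCh38.p14. Errors are between flasks and include counting error.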

Additional observations from a re-analysis of the deposited data

Results flagged for a closer look

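The responses of WNT5B to TGF-β at the 2 times differed by −1.18 on the log2 scale (D20 minus D1, edgeR's quasi-likelihood test, adjusted p = 0.000843), with a rise in 3 of 3 treated flasks above the untreated range at day 1 and levels below it in 3 of 3 at day 20. For FZD1 the difference was 0.67 (adjusted p = 0.00428), with a larger rise at day 20, and this call was lost in 6 of the settings that leave out 1 library, with adjusted p up to 0.0155. Both were picked out because the test of the difference between the times passed the threshold. Their causes were not tested.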

How the results depend on the processing

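Over 23 alternative settings, 1023 of 1115 recomputed log2 fold changes of the 10 genes kept their direction and their side of the threshold, 22 passed it newly, 42 no longer passed it and 28 turned direction. None of the values that turned had been called. Leaving out 1 library in turn, FZD2 ranged from −0.01 to 0.30 (D1+ TGF-β vs D1), −0.02 to 0.10 (treated conditions over time), −0.06 to 0.27 (D20 vs D1) and −0.22 to 0.10 (difference of responses). AXIN2 ranged from −0.05 to 0.29 (D20+ TGF-β vs D20) and WNT5B from −0.13 to 0.17 (D20 vs D1). The differences of responses ranged from −0.06 to 0.04 for FZD7, −0.40 to 0.19 for WNT2 and −0.09 to 0.29 for DKK1. Leaving out D1 replicate 2 and D20+ TGF-β replicate 3 together, a setting chosen after seeing the data, gave −0.01, −0.03, −0.06 and 0.03 for FZD2 in the order above, −0.13 for WNT5B, and 0.06, 0.33 and −0.03 for the differences of FZD7, WNT2 and DKK1. Without a composition factor, which moved the median difference of responses of all genes from 0.017 to 0.125, WNT5B was at −0.02 and the differences were 0.05 for FZD2, 0.08 for FZD7 and 0.02 for WNT2. Without a filter on low counts, WNT5B was at −0.03 and the difference for FZD7 at 0.01. The causes were not tested.

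Treating the 48 lanes as samples raised the pathway genes called from 11 to 31, 24 to 37, 21 to 33 and 9 to 25 (both TGF-β comparisons, treated conditions over time, difference of responses), the members called for the difference from 2 to 4, and all genes called to 3934, 5205, 5762, 5934 and 3712 (D20 vs D1 being the fourth); lanes repeat the same RNA. Leaving out both libraries gave 20 pathway genes and 2642 genes in D1+ TGF-β vs D1, and 15 and 2264 for the difference. With only the libraries of the comparison, 802 genes were called in D1+ TGF-β vs D1. No filter gave 33 and filterByExpr 32 pathway genes in the treated conditions over time, and no filter gave 7 members in D20 vs D1. Without 1 library each, calls ranged from 619 to 1875 (main 1271, D1+ TGF-β vs D1; lowest without D1+ TGF-β replicate 2) and from 549 to 1731 (main 985, difference; lowest without D1+ TGF-β replicate 2, highest without D1 replicate 2). Pathway genes ranged from 14 to 30 (D20+ TGF-β vs D20; lowest without D20 replicate 3) and from 4 to 13 (difference), and members from 1 to 3 (difference). Replicate numbers did not pair the samples, with correlations of deviations between −0.223 and 0.325 over 18 same-numbered pairs, 4 of them over 0.1. With the replicate number as a block, 5 members were called at each time, against 5 and 6, and FZD7 was the call lost at day 20 (−0.29, edgeR adjusted p = 0.0166). Genes near 1 cpm, such as WNT2 at D1 with 7 to 8 counts, are limited by depth.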
